A study of Mus musculus with 6 samples.

Results

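The 10 microglia genes Csf1r, Cx3cr1, P2ry12, Trem2, Tyrobp, C1qa, C1qb, C1qc, Aif1 and Fcrls were examined in the embryonic mouse midbrain. They were taken by name, as genes commonly used to mark microglia. They are 10 of the 26852 genes in the deposited table, and all 10 passed the filter of a mean of at least 10 normalised read counts, as did 16680 genes in all. RNA-seq was performed on whole dissected midbrains of E14.5 embryos on a C57Bl/6 background, with 3 libraries of Lmx1b cKO embryos (Lmx1b fl/fl;Pitx3-Cre) and 3 of control embryos (Lmx1b wt/wt;Pitx3-Cre), each made from 2 pooled embryos. Controls and cKOs therefore both carried the Pitx3-Cre allele, and they differed in the floxed Lmx1b alleles. Cre was driven by Pitx3, a transcription factor of meso-diencephalic dopaminergic (mdDA) neurons, so the deletion was directed at those neurons and not at microglia. The comparison asks whether the amount of RNA from microglia genes in the midbrain differed after loss of Lmx1b, a LIM-homeodomain transcription factor of mdDA neurons and of the midbrain-hindbrain border.

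Microglia are the resident macrophages of the brain. They descend from yolk sac progenitors that enter the neural tube early in development, depend on the receptor Csf1r for survival, and clear dying cells and prune synapses. In the embryo they are few compared with neurons and progenitors, so their transcripts make up a small part of the RNA of a whole midbrain.

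Values are given per library. A normalised read count is the number of reads of a gene divided by the size factor of its library. The reads of each library were recovered from the group means in the table, and the libraries are named replicate a, b and c in each group by falling size factor, since the recovery gives them no sample number. The 6 libraries held between 20629683 recovered reads (cKO c) and 25051860 (control a). The members together took 1000 to 1319 reads per library, which is 0.00485 to 0.00542% of the recovered reads.

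Lmx1b itself, counted over the whole gene, had normalised counts of 1257, 1401 and 1455 in cKO a, b and c and of 1368, 1352 and 1474 in control a, b and c. The groups overlapped, and the log2 fold change of -0.03 had a 95% interval of -0.19 to 0.13. A count over the whole gene takes in any reads from undeleted parts and from Lmx1b-expressing cells outside the Pitx3 domain. The share of such reads was not tested, so these counts do not check the genotype labels. Midbrain identity was clear in every library: Nr4a2, a nuclear receptor of mdDA neurons and the most abundant per kilobase of the 10 recovered midbrain and mdDA genes, was between 3047 and 3484 normalised counts. Of those 10 genes, 4 were lower in the cKO at an unadjusted p under 0.05 (limma), beside 1.61% of all genes tested, namely Ddc, Pitx3, En1 and En2, with log2 fold changes of -0.24, -0.41, -0.40 and -0.46, and none passed after adjustment. En1 and En2 stayed under 0.05 when any 1 library was left out, while Pitx3 (-0.24, unadjusted limma p 0.21 without cKO a) and Ddc (-0.11, p 0.147 without control c) did so in 2 of 6 fits each.

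Before the values, the starts of the member genes are shown, because the members are expressed in the same cell type and a reader may ask what their promoters share. PU.1, the product of Spi1, is the Ets-family factor of macrophages and microglia, and its sites contain the letters GAGGAA on either strand. RefSeq promoter windows, 250 bases before to 50 after a gene's start (GRCm38.p6), were matched for 7 of the 10 members. GAGGAA or its reverse complement TTCCTC was found in 5 of these 7 windows and in 28.3% of all 32851 windows, and the longer GAGGAAGT, which contains GAGGAA, was found in 1 of 7 against 3.2% of all windows. The stretches around the match are printed below for the 3 members in which it lay outside the GENCODE gene, in the sense of the gene and with the match in capitals.
C1qb: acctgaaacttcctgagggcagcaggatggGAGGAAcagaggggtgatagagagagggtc
C1qc: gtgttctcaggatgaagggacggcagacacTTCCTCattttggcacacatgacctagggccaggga
Trem2: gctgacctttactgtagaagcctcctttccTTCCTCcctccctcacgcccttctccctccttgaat
The C1qb stretch lies at chr4:136886201-136886260 on the minus strand with the match 30 bases before the start, the C1qc stretch at chr4:136893072-136893137 on the minus strand with the match 193 bases before it, and the Trem2 stretch at chr17:48346331-48346396 on the plus strand with the match 40 bases before it. Fcrls and Aif1 hold the other matches, at 144 and 7 bases before the RefSeq start. A match of 6 letters is common and describes the window only. It was not measured here whether any factor binds there.

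The first members are receptors by which microglia read signals from neurons. Csf1r, the receptor of the growth factors Csf1 and Il34 (ENSMUSG00000024621, GRCm38 chr18:61100598-61132149, plus strand), had normalised counts of 310, 299 and 318 in the cKO and 322, 350 and 299 in control libraries. All 6 values lay within 1.17-fold of each other, and the groups overlapped. With 309 ± 9.63 in the cKO and 324 ± 25.3 in the control (SD, n = 3 each), the fold of cKO over control was 0.955 with a 95% interval of 0.799 to 1.14. For the receptor on which microglia depend, the interval thus stayed within 1.5-fold in both directions.

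Cx3cr1, the receptor of the neuronal chemokine Cx3cl1 (ENSMUSG00000052336, chr9:119901616-120069879, minus strand), was counted at 245, 231 and 198 in the cKO and 201, 238 and 248 in the control. The highest and lowest values of both groups were almost the same. Its means were 225 ± 24.0 and 229 ± 25.1 (SD, n = 3 each), and its fold was 0.991 with an interval of 0.790 to 1.24, the closest to 1 of the 10 members.

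P2ry12, the ADP receptor by which microglial processes move towards injury and a marker of homeostatic microglia (ENSMUSG00000036353, chr3:59216272-59262871, minus strand), gave 89.0, 97.2 and 72.5 in the cKO and 98.2, 113 and 96.1 in the control. The groups overlapped by one value, cKO b lying just above control c. Its means of 86.2 ± 12.6 and 103 ± 9.40 (SD, n = 3 each) gave a log2 fold change of -0.25 with an interval of -0.71 to 0.20. This was the smallest p of the 10 members (0.249 unadjusted, limma).

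Trem2 and Tyrobp work as a pair: Trem2 is a lipid-binding receptor of the microglial surface and Tyrobp (DAP12) is the adaptor that signals for it and for other receptors. Trem2 (ENSMUSG00000023992, chr17:48346401-48354147, plus strand) had 28.1, 29.6 and 31.4 normalised counts in the cKO and 40.7, 36.5 and 33.5 in the control. All cKO values lay below the lowest control value, which holds for no other member. The means were 29.7 ± 1.64 and 36.9 ± 3.62 (SD, n = 3 each), and the fold was 0.804 with an interval of 0.502 to 1.29. Trem2 was read only 28 to 46 times per library, and its spread within the groups, 8.45%, was below the 17.2% that counting alone gives at this depth. With 3 libraries per group, such a low spread does not tell whether the groups differ. The exact permutation p of 0.1 is the smallest that 3 against 3 libraries can give, and the limma p was 0.329.

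Tyrobp (ENSMUSG00000030579, chr7:30413760-30417585, plus strand) had 8.43, 26.4 and 33.6 in the cKO against 33.6, 21.1 and 30.2 in the control. One library carried the difference: cKO a held 9 reads, and the other 5 held 22 to 38. The exact Poisson 95% interval of cKO a, 3.86 to 16.0 normalised counts and for counting error only, lay below the intervals of the other cKO libraries, 17.1 to 39.0 and 22.8 to 47.6. Over the groups the means were 22.8 ± 12.9 and 28.3 ± 6.46 (SD, n = 3 each), with a log2 fold change of -0.53 and an interval of -1.62 to 0.56. Without cKO a the log2 fold change was 0.095. Its partner Trem2 had its lowest normalised count there as well, 28.1, beside 29.6 and 31.4 in the other cKO libraries. In reads these were 30 in cKO a and 28 and 29 in cKO b and c. The Poisson interval of Trem2 in cKO a, 19.0 to 40.1, held both other cKO values.

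C1qa, C1qb and C1qc encode the chains of C1q, the starter of the classical complement pathway, which in the brain comes mostly from microglia and tags synapses for removal. The genes lie side by side on the minus strand of chromosome 4 within 18675 bases, with gaps of 2851 and 3616 bases between them. C1qb (ENSMUSG00000036905, chr4:136880129-136886187) was 125, 149 and 133 in the cKO and 128, 121 and 111 in the control. It was one of only 2 members with a higher mean in the cKO, 136 ± 12.4 against 120 ± 8.55 (SD, n = 3 each), and the fold of 1.12 had an interval of 0.857 to 1.46.

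C1qa (ENSMUSG00000036887, chr4:136895917-136898803) was 73.1, 71.9 and 54.1 in the cKO and 70.8, 76.8 and 69.1 in the control. Apart from cKO c its values lay within a narrow range, and its fold was 0.916 with an interval of 0.642 to 1.31. C1qc (ENSMUSG00000036896, chr4:136889804-136893065) was 58.1, 106 and 110 in the cKO and 116, 116 and 81.0 in the control. Its fold was 0.830 with an interval of 0.548 to 1.26, and without cKO a its log2 fold change of -0.27 became 0.053.

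Per kilobase of exon, C1qb was 1.51 to 2.35 times C1qa in the 6 libraries, whereas C1qc went from 0.428 times C1qa in cKO a to 1.1 times in cKO c. The C1qc ratio depends on the length used: with the longest transcript it was 0.687 to 1.76, and above 1 in every library but cKO a, while the C1qb ratio was the same. The low C1qc value in cKO a fell in the same library as the low Tyrobp value.

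Aif1 (Iba1), the actin-binding protein whose antibody is the usual stain for microglia (ENSMUSG00000024397, chr17:35170991-35176068, minus strand), was 25.3, 16.9 and 18.4 in the cKO and 31.0, 21.1 and 28.1 in the control. The lowest control value lay between the cKO values. Its means were 20.2 ± 4.48 and 26.7 ± 5.05 (SD, n = 3 each) with a fold of 0.764 and an interval of 0.430 to 1.36. At 9 to 38 reads per library Aif1 and Tyrobp were the least read members, and theirs are the 2 intervals of the 10 that reach beyond 2-fold.

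Fcrls, an Fc receptor-like scavenger receptor found on mouse microglia (ENSMUSG00000015852, chr3:87250758-87263738, minus strand), was 144, 186 and 113 in the cKO and 126, 110 and 158 in the control. High and low values occurred in both groups. Its means were 148 ± 36.8 and 131 ± 24.1 (SD, n = 3 each), and its fold was 1.12 with an interval of 0.807 to 1.56. Without cKO b the log2 fold change went from 0.17 to -0.0039.

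**Figure D1:**
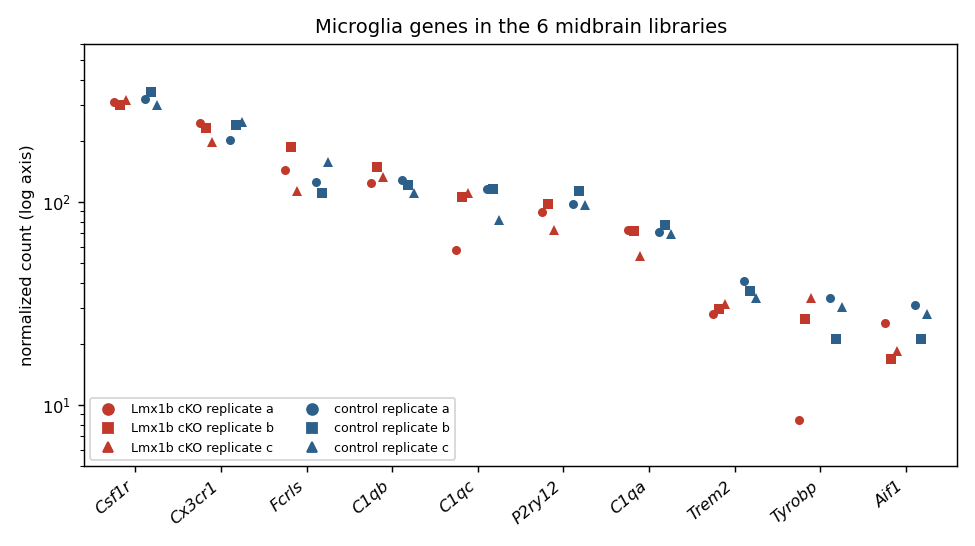
Normalised read counts of the 10 microglia genes on a log axis, with each of the 3 Lmx1b cKO libraries as a red and each of the 3 control libraries as a blue point. The groups overlap for 9 genes, and for Trem2 the 3 cKO values of 28.1 to 31.4 lie below the 3 control values of 33.5 to 40.7.

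Some reads of these genes could belong to neighbours. Csf1r shares 873 exon bases with Hmgxb3 on the opposite strand, Cx3cr1 shares 78 with Gm33858, and P2ry12 lies within Med12l on the opposite strand and shares 9 with it. Use of the strand in counting is not given in the sources used here, so reads of such bases cannot be assigned between the partners.

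Across the 10 members, 8 had a lower and 2 a higher fitted level in the cKO, with a median log2 fold change of -0.19 and a range of -0.53 to 0.17, beside a median near 0 (-1.33e-05) over all 16680 genes tested. The median was -0.076 without cKO a, where C1qc and Tyrobp turned to higher, and -0.067 over the 7 members with a mean of at least 50. Cx3cr1 and C1qa turned to higher without cKO c, at 0.071 and 0.0051. Cx3cr1 also did so without control b and without control c, at 0.022 and 0.044. None of the 10 passed the test: no member had an adjusted p under 0.05 (limma, Benjamini-Hochberg over all genes), and none had an unadjusted p under 0.05. The background for these counts was low as well, at 0% of all genes tested for the adjusted p, and at 1.61% lower and 1.18% higher in the cKO for the unadjusted p. Groups that do not overlap were found for 1 member, Trem2, against 3.79% of all genes whose cKO values all lay below the control values and 3.88% whose cKO values all lay above. All 10 intervals included no difference, and every adjusted p was 1.00. The members share cells and libraries, so their 10 directions are not independent of each other.

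What the intervals allow is of more use than the p-values. For 8 of the 10 members the 95% interval lay within 2-fold in both directions, and for Csf1r, Cx3cr1 and C1qb within 1.5-fold. A 2-fold difference of these 8 transcripts lies outside those intervals, while for Tyrobp and Aif1 a 2-fold decrease lies inside. In whole tissue, fewer microglia and less RNA of a gene per microglial cell cannot be told apart, and each value is an average over the whole dissected midbrain.

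**Figure D2:**
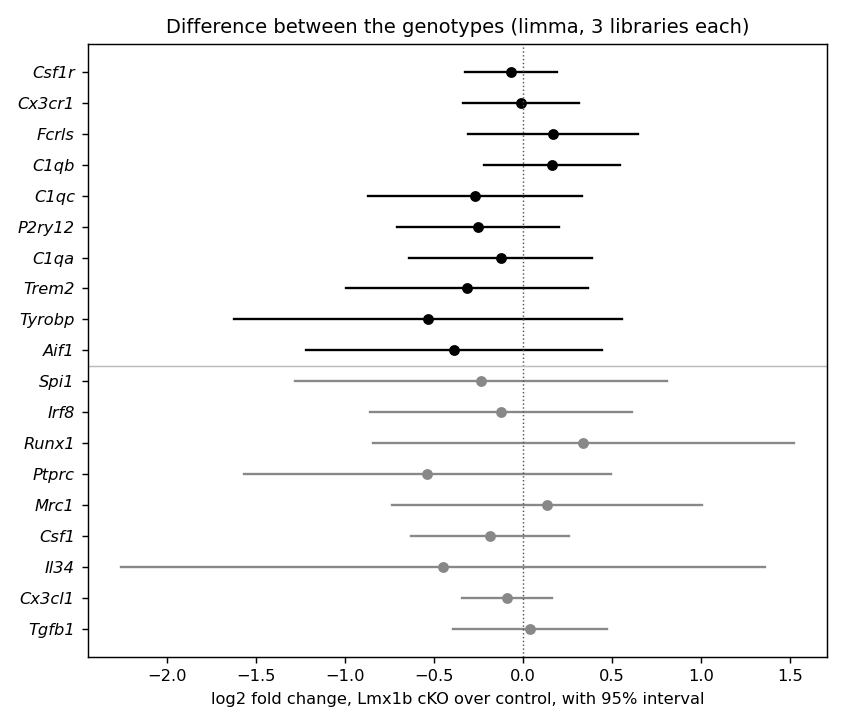
Fitted log2 fold change of Lmx1b cKO over control with its 95% interval (limma) for the 10 microglia genes and for 9 genes fixed beside them: Spi1, Irf8, Runx1, Ptprc, Mrc1, Csf1, Il34, Cx3cl1 and Tgfb1. Every interval crosses 0, and those of Csf1r and Cx3cr1 are the narrowest of the members, at -0.32 to 0.19 and -0.34 to 0.31.

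Levels between genes were compared per kilobase of exon. C1qb was highest at 118 ± 11.7 normalised counts per kb (SD over 6 libraries), and its lowest library, at 102, was above the highest of the next gene. Then came C1qa at 66.6 ± 7.58, Fcrls at 59.7 ± 12.5, Csf1r at 54.8 ± 3.27, C1qc at 50.7 ± 12.1, Cx3cr1 at 50.4 ± 4.90, Tyrobp at 38.3 ± 14.5 and P2ry12 at 37.1 ± 5.25. Each of these overlapped with its neighbour in the order, so the order of neighbours is not fixed by these data. By this length the lowest libraries of C1qa (52.0) and Csf1r (51.8) lay above the highest of Tyrobp (50.4) and P2ry12 (44.5). The lowest library of Fcrls (47.3) also lay above the highest of P2ry12.

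Aif1 followed at 15.3 ± 3.63 and Trem2 at 6.73 ± 0.946, and these last 2 were apart from the gene above them and from each other. Trem2 is thus the lowest member per kilobase although Tyrobp, whose exons span 667 bases against 4946 annotated for Trem2, had fewer reads. Taking the longest transcript as the length raised Csf1r to 67.3, C1qc to 81.4 and Aif1 to 26.8 normalised counts per kb and moved C1qc to the second place, while C1qb stayed first and apart. With that length the ranges of Aif1, up to 35.4, and P2ry12, from 30.9, overlapped, and Trem2 stayed apart. Those of Tyrobp, up to 56.3, and C1qa, from 52.0, then overlapped as well.

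**Figure D3:**
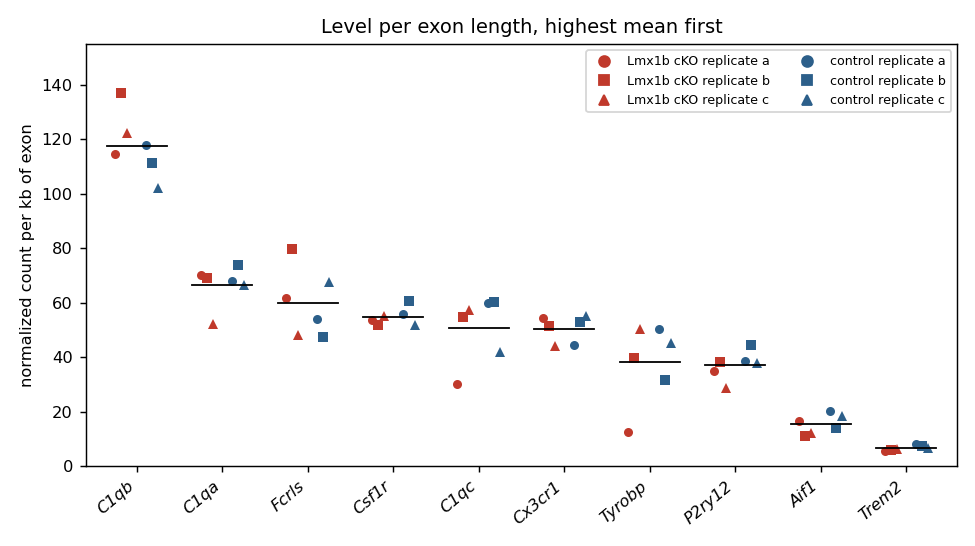
Level of each microglia gene in normalised read counts per kilobase of exon in the 6 libraries (points), ordered by their mean (horizontal lines). C1qb stands above the others at 102 to 137, 7 genes follow whose ranges overlap from neighbour to neighbour, and Aif1 and Trem2 are lowest.

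How closely the libraries agreed differed between members. For Csf1r the spread within groups, 6.05%, was close to the 5.6% that counting alone would give, and for C1qb, C1qa, Aif1 and P2ry12 the ratio of observed to counting spread was between 0.943 and 1.15. Fcrls, C1qc and Tyrobp varied more, with 22.3, 25.5 and 40.01% against 8.47, 10.1 and 19.8% from counting. For these 3 genes, then, libraries of the same genotype differed by at least 2.02 times what the number of reads gives, and for Cx3cr1 the ratio was 1.63.

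**Figure D4:**
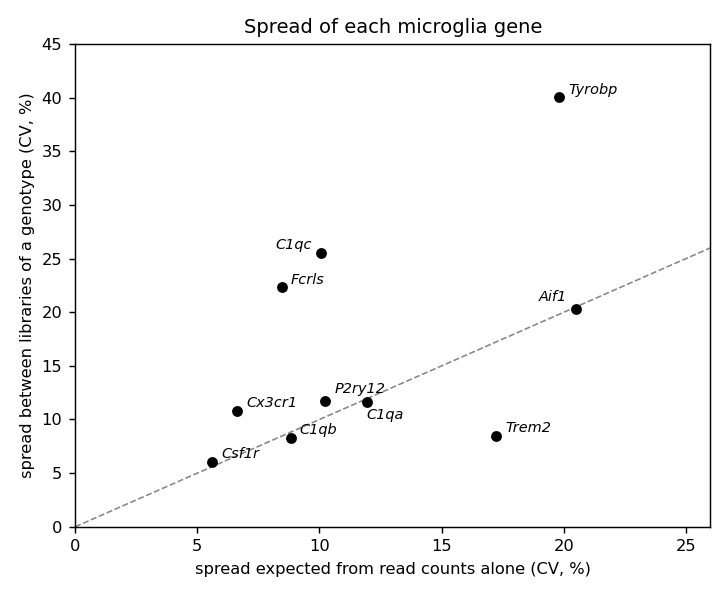
Spread within groups of each microglia gene, as a coefficient of variation in percent, against the spread that counting of its reads would give. Csf1r, C1qb, C1qa, Aif1 and P2ry12 lie near the dashed line of equality, Fcrls, C1qc, Tyrobp and Cx3cr1 lie above it, and Trem2 lies below.

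No library was high or low in all members. Control b held the highest value of 4 members and control a that of 3, cKO b that of 2 and control c that of 1, and neither cKO a nor cKO c held any. Of the lowest values, cKO a and cKO c held 3 each. Summed over the members, the normalised counts were 1106, 1213 and 1082 in cKO a, b and c and 1167, 1205 and 1155 in control a, b and c. The sum of cKO b was the highest of all 6 and the other 2 cKO sums were the lowest, so the groups overlapped.

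The wider set of microglia and macrophage genes was described from a list of 47 others, of which 44 were tested. A lower fitted level in the cKO was found for 26 and a higher one for 18, with a median log2 fold change of -0.10, and 1, Sall1, was lower at an unadjusted p under 0.05, beside 1.61% of all genes tested. The highest cKO library lay below the lowest control library for 3 of the 44, namely Sall1, Ikzf1 and Lyz2, and the reverse held for none, beside 3.79 and 3.88% of all genes tested. Ikzf1 and Lyz2 were named after their values were seen. Summed over that list, the libraries held 5702 to 6340 normalised counts in the cKO and 5871 to 6268 in the control. The most abundant per kilobase was Csf2ra, a chain of the GM-CSF receptor, at 1156 ± 74.4 and 1088 ± 127 normalised counts (SD, n = 3 each).

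Sall1, a transcription factor of microglia that neural progenitors also express, was 1061, 1212 and 1335 in the cKO and 1437, 1358 and 1385 in the control. All cKO values were lower, with a log2 fold change of -0.23 ± 0.084 (SE, unadjusted limma p 0.0203, adjusted p 1.00). Without cKO a it was -0.13 with a p of 0.116 in the same test. Its level per kilobase was 246, above that of each member, and its microglial part was not separated here.

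For Spi1, Irf8 and Runx1, transcription factors of the macrophage and microglial lineage, the groups overlapped. Spi1 was 9.37, 32.8 and 25.98 in cKO libraries and 24.8, 24.0 and 20.5 in control libraries. Its low library was cKO a, as for Tyrobp and C1qc. Irf8 averaged 35.6 ± 10.8 and 38.5 ± 6.05, and Runx1 36.3 ± 3.79 and 34.9 ± 22.9 (SD, n = 3 each). Ptprc (CD45), which all white blood cells carry, averaged 20.9 ± 11.1 and 29.8 ± 11.7.

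Signals to microglia were measured in the same libraries. Of 11 ligands and signals, all tested, 1 was higher at an unadjusted p under 0.05, beside 1.18% of all genes, and none passed after adjustment. Their median log2 fold change was -0.0037. Every cKO library lay above the controls for 2 of the 11, beside 3.88% of all genes, namely Cxcl12 and Tgfb2, the latter named after its values were seen, at 536 to 579 against 458 to 503 normalised counts. Csf1 averaged 142 ± 32.9 in cKO and 157 ± 24.1 in control libraries, and Il34, the other Csf1r ligand, 11.9 ± 9.72 and 15.3 ± 9.69 (SD, n = 3 each). Their receptor Csf1r was the steadiest member, while Il34 ranged from 2.11 to 23.1 normalised counts over the 6 libraries. Cx3cl1, the ligand of Cx3cr1, was 931 ± 140 and 997 ± 116, and Tgfb1, which keeps adult microglia in their homeostatic state, was 109 ± 14.5 and 107 ± 9.61.

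The one gene of that list under 0.05 was Cxcl12, a chemokine that guides neurons and blood cells, at 340, 306 and 294 in the cKO and 223, 266 and 222 in the control. Every cKO library was above every control library, with a log2 fold change of 0.41 ± 0.133 (SE, unadjusted limma p 0.00992, adjusted p 1.00). Cd200, the neuronal ligand that restrains microglia and the most abundant of the list per kilobase, averaged 7294 ± 931 and 7107 ± 491.

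Around the receptor and complement members, no list held a gene past the adjusted threshold. None of 13 tested complement genes, led by C1qbp at 1808 ± 113 and 1729 ± 41.6, none of 6 tested Tyrobp and Fc receptor partners, led by Fcer1g at 24.2 ± 6.80 and 20.9 ± 11.03, and none of 10 tested purinergic receptors and ectonucleotidases, led by Entpd1 at 345 ± 75.1 and 348 ± 22.3, had an unadjusted p under 0.05. Their median log2 fold changes were -0.018, 0.037 and 0.018. Of 8 tested genes of the amoeboid, proliferating-region microglia of early life, led by the lysosomal protease Ctsd at 4522 ± 142 and 4564 ± 49.3, 1 was lower at an unadjusted p under 0.05, beside 1.61% of all genes, the tetraspanin Cd9. Cd9 was 406, 405 and 394 in cKO libraries and 546, 497 and 432 in control libraries. Its log2 fold change was -0.29 ± 0.113 (SE, unadjusted limma p 0.0236, adjusted p 1.00), and many neural cells express it as well. Without control a it was -0.21 with a limma p of 0.101, and p stayed under 0.05 in 3 of 6 fits without 1 library. Every cKO library lay below the controls for 2 of the 8 genes, Cd9 among them, beside 3.79% of all genes, and the reverse held for none.

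Other cells that could give myeloid transcripts were checked by their markers. Of border-associated macrophage genes, Pf4, Cd163, Lyve1 and Ms4a7 did not exceed 3.25 normalised counts in any library, while Mrc1 was measured at 20.6 to 46.5 and averaged 31.2 ± 13.6 and 26.4 ± 5.36. Stab1, a scavenger receptor of that list that vessels also express, led it at 378 ± 37.1 and 393 ± 31.4. The monocyte markers Ccr2 and Plac8 reached at most 7.495 and 0.937, though Fn1 of that list, which mesenchyme also makes, averaged 2936 ± 865 and 2558 ± 209. Of the 6 monocyte and 11 border macrophage genes listed, 3 and 9 had a row. The part of these cells in the microglia values was not tested.

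Of 4 neutrophil and granulocyte genes with a row, 1 was tested, Prtn3, at 119 ± 10.6 and 108 ± 20.3, and of 6 lymphocyte and mast cell genes none was, the highest per kilobase being Cd79a at no more than 7.56. For osteoclasts, 4 of 7 genes with a row were tested and none had an unadjusted p under 0.05. Mmp9 led them at 1243 ± 70.6 and 1322 ± 115, and Calcr, the calcitonin receptor, averaged 665 ± 90.6 and 712 ± 153. Which cells gave the reads of Mmp9 and Calcr was not tested. Ctsk, the collagen-cleaving protease of osteoclasts, was 41.2, 41.2 and 76.8 in cKO a, b and c and 37.8 to 46.9 in control libraries, so its highest value was in cKO c, and Oscar, an osteoclast receptor, ranged from 1.06 to 32.7. Acp5, Dcstamp and Ocstamp reached at most 4.68, 1.08 and 5.76 normalised counts.

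The groups overlapped for all vessel genes: of 12 endothelial and pericyte genes none had an unadjusted p under 0.05, their median log2 fold change was 0.024, and Cldn5, a tight junction gene that led them, averaged 1141 ± 85.8 and 1208 ± 160. Red cell genes were higher in the cKO in 10 of 11 fits with a median log2 fold change of 0.30. Of these, 2 had an unadjusted p under 0.05, beside 1.18% of all genes higher, Hbb-bs at 0.30 and Hba-a1 at 0.26. Their near-identical copies Hbb-bt and Hba-a2 were at -0.038 and 0.10, and how reads were split between the copies was not tested. Without control a Hbb-bs and Hba-a1 were 0.15 and 0.14, with limma p of 0.171 and 0.19. Sums over the red cell list overlapped, at 13936 to 18176 normalised counts in the cKO and 12637 to 17198 in the control. Hbb-y, the embryonic globin that led the list, averaged 4075 and 3249. The part of blood in the microglia values was not tested.

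Transcripts of bone and mesenchyme set 2 cKO libraries apart, cKO c most and cKO a less. Col1a1, the main collagen of bone, was 532, 14.8 and 6097 in cKO a, b and c and 10.6, 11.5 and 10.8 in control a, b and c. The list of 11 such genes summed to 2476, 848 and 14533 normalised counts in cKO a, b and c and to between 810 and 937 in the control libraries, its 10 tested genes were all higher in the cKO fit with a median log2 fold change of 1.48, and Col3a1 alone had an unadjusted p under 0.05, beside 1.18% of all genes higher. Its log2 fold change of 1.84 was 1.03 without cKO c. Ibsp, a bone matrix protein, was at 163 in cKO c and at most 1.08 elsewhere. Lum, a proteoglycan of connective tissue, was 62.8 in cKO a, 306 in cKO c and at most 3.17 elsewhere. In cKO a the members Tyrobp, C1qc and Trem2 held their lowest values. For Trem2 the other cKO values lay within the counting interval of cKO a, 19.0 to 40.1. Cx3cr1 and C1qa each held their second highest of the 6 libraries in cKO a. The part of bone or mesenchymal tissue in any microglia value was not tested.

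Library cKO c held the highest value of 0 of the 10 microglia genes, against 16.4% of all genes tested, though Tyrobp and C1qb were second highest there. With 10 genes this count is close to the background. Of the 44 other microglia and macrophage genes it held the highest value of 13, or 29.5%. Among them were 2 singled out after their values were seen. Tmem119, a surface protein that marks adult microglia and that bone-forming cells also make, was 17.8, 16.9 and 88.8 in the cKO and 20.3, 20.2 and 25.9 in the control. Olfml3, a secreted protein of microglia, was 60.0, 60.2 and 118 against 57.5, 40.3 and 75.6.

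Both had their highest value in cKO c. Their fitted log2 fold changes, both 0.42, became -0.32 for Tmem119 and 0.11 for Olfml3 without cKO c. For the 10 members the median without cKO c was -0.11. Tmem119 and Col1a1 were both highest in cKO c, while in cKO a Col1a1 was 532 and Tmem119 17.8. The part of bone-forming cells in its reads was not tested.

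**Figure D5:**
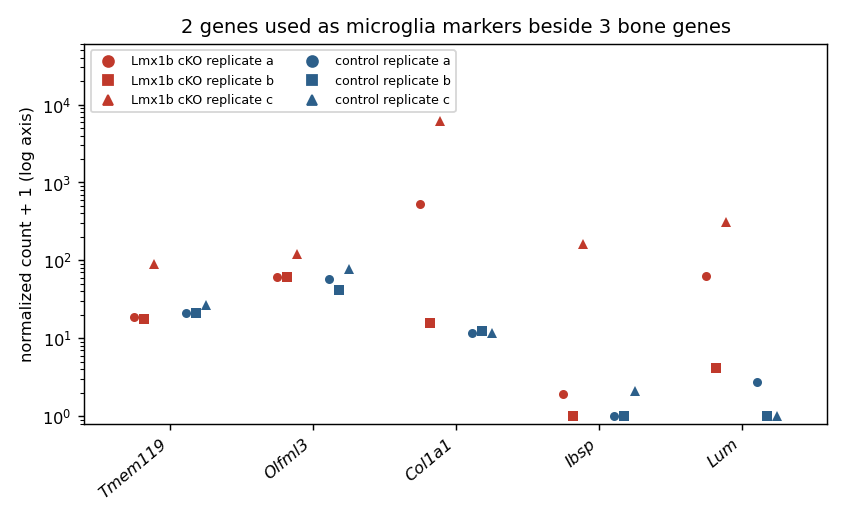
Normalised read count plus 1, on a log axis, of Tmem119 and Olfml3 beside Col1a1, Ibsp and Lum in the 6 libraries. In cKO c Tmem119 is at 88.8 and Col1a1 at 6097, while in the other cKO and control libraries Tmem119 is between 16.9 and 25.9.

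The genes whose profile was most like the mean profile of the members, by Pearson's r over the 6 libraries among genes with a mean of at least 50 normalised counts, were Atg14 (0.997), Gpr19 (0.994), Gm35013 (0.986), Echs1 (0.982) and 6330418K02Rik (0.974). With 6 libraries and 13665 genes with such a mean these values are a description only. None of the 5 is a gene of the lists above. The members themselves had a median r of 0.22 to that profile, each being part of it, the 44 other microglia and macrophage genes one of -0.029, and all genes tested one near 0 (-9.63e-05). All these values share the same 6 libraries and their depth, and the members were read 9 to 364 times per gene and library.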

How the data were processed

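RNA-seq was performed on dissected E14.5 midbrains, with 3 libraries per genotype. Per the labels and the study's methods, the authors mapped reads to GRCm38; the submitters' processing notes name TopHat 1.0.14, Bowtie2 2.1.0, HTSeq 0.6.1p1 and DESeq 1.10.1, while the methods name DESeq2. The deposited signal is the mean per group, and over all libraries, of read counts divided by size factors. Its 3 lines that name no gene held 31.8% of the mean counts and were left out. The columns of the authors' ratio, log2 ratio, p-value, adjusted p-value and rank were not used.

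Each group mean is a sum of whole reads weighted by the size factors, so the reads of each library were recovered by a search of up to 30000 reads per library with a relative tolerance of 1e-14. This gave reads for 26355 of 26852 genes (98.1%), which hold 69.5% of the gene counts. The other 497 genes lay over the search limit. Size factors recomputed from the recovered reads differed from the recovered ones by at most 0.126%. The headers of the group means number the libraries of both genotypes N1 to N3, but the recovered libraries cannot be matched to these numbers. They are separate pools of 2 embryos from several litters, and the sources used here do not say that a number marks a shared litter.

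Since the table holds no counts per library, recovered reads were tested with limma 3.58.1 (voom, R 4.3.3), over 16680 genes with a mean normalised count of at least 10, with Benjamini-Hochberg adjustment over all of them and 95% intervals from the same fit. An exact permutation test (two-sided) was run for single genes, and 0.1 is the smallest p it can give with 3 against 3. Poisson intervals cover counting error only. Positions and exon lengths are from GENCODE vM21, which held 26703 of the 26852 genes, and promoters from RefSeq. Alternatives were other scalings, filters, models and lengths, and leaving out each library.

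Of the other lists, genes with an unadjusted p under 0.05, the most abundant gene per kilobase and a fixed set of genes are named, one of them not reported here, and outside the lists the 5 most alike profiles. The 10 members and the lists were chosen with earlier results of these data known.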

Additional observations from a re-analysis of the deposited data

How the results depend on the processing

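No member passed an unadjusted or an adjusted p under 0.05 (limma) in any alternative, nor an adjusted p under 0.1 in the fit reported. Over the alternatives, 150 of 157 fitted or averaged values of a member kept their direction, and the 7 that reversed all came from leaving out 1 library. Leaving out each library in turn gave log2 fold changes of -0.11 to 0.071 for Cx3cr1, -0.21 to 0.0051 for C1qa, -0.43 to 0.053 for C1qc, -0.91 to 0.095 for Tyrobp and -0.0039 to 0.34 for Fcrls. The values above 0 for C1qc and Tyrobp came without cKO a, and the value below 0 for Fcrls without cKO b. The median of the members was -0.23 to -0.076 when a library was left out, and -0.067 with a minimum mean of 50, which kept 7 members. Groups that do not overlap were found for 1 to 4 members when a library was left out (3 without cKO a, 4 without control c), Trem2 among them each time, beside 14.3 to 19.4% of all genes tested in either direction under the same settings (17.6% without cKO a, 14.3% without control c). Upper-quartile scaling gave 2 members, Trem2 and P2ry12, beside 8.4% of all genes. Taking the longest transcript as length gave 67.3, 81.4 and 26.8 normalised counts per kb for Csf1r, C1qc and Aif1. Over all genes, 466 had an unadjusted p under 0.05, and 971 with no filter, 696 with a minimum mean of 1, 342 with one of 50, and 333 to 635 without 1 library. Upper-quartile scaling split 575 calls into 456 lower and 119 higher, beside 269 and 197, and shifted the median of all genes by -0.029. An adjusted p under 0.05 was reached by 0 to 4 genes without 1 library. Those 4, without control a, were the Y-chromosome genes Uty, Kdm5d and Ddx3y, and Gm11702. The sex of the pooled embryos is not given in the study's methods and was not tested. Unadjusted p stayed under 0.05 in 6 of 6 fits without 1 library for Cxcl12, in 4 for Sall1, and in 3 each for Cd9, Col3a1, Hbb-bs and Hba-a1. No paired analysis was possible because the recovered libraries cannot be matched to the numbers N1 to N3 that the headers give in both genotypes. The intervals of Tyrobp and Aif1, read 9 to 38 times per library, include a 2-fold decrease.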
